A study of Mus musculus with 12 samples.

Results

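The genes described here encode growth factors of the VEGF and EGF families, IGF-1, and receptors that bind them, and they were measured in RAW264.7, a line of mouse cells that resemble macrophages. They are 10 genes chosen by name: the ligands Vegfa, Vegfb, Vegfc, Hbegf, Areg, Ereg and Igf1, and the receptors Flt1, Nrp1 and Nrp2. A probe set assigned to a single gene was listed for 8 of the 10, out of 30484 genes named on the array. No probe set was listed for Areg, and the probe set of Nrp1 was also assigned to a microRNA gene, so neither has a value here. Of the 8 measured genes, 7 passed a filter on low signal, and Ereg did not.

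VEGF-A is a secreted protein that drives the growth and permeability of blood vessels by binding the receptor tyrosine kinases VEGFR1, encoded by Flt1, and VEGFR2, encoded by Kdr. VEGF-B binds VEGFR1, VEGF-C acts mainly on lymphatic vessels through VEGFR3, encoded by Flt4, and the neuropilins are coreceptors that also bind semaphorins. HB-EGF, amphiregulin and epiregulin are made as membrane-bound precursors, are released by ADAM proteases and activate the EGF receptor. Macrophages are a known source of VEGF-A, HB-EGF and IGF-1 in tissues and tumours.

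The study placed RAW264.7 cells for 24 h in 1 of 4 media, with 3 arrays per group and 12 in all. The conditioned media were used at 50%, the remainder being RPMI with 10% serum, and came from PyMT-41C cells. Replicates 2, 3 and 4 were in normal medium, and replicates 1, 3 and 4 of a second group were in medium of SCR cells, called SCR medium here. Replicates 1, 2 and 3 of the KO medium group received that of JMJD6-knockout cells. In the last group, with replicates 1, 2 and 4, the cells were in SCR medium to which CSH was added, described in the labels as blocking the annexin A1 receptor. JMJD6 was absent from the cells that made the medium, not from the cells measured. The labels name no vehicle group and no group with CSH in normal medium. Whether replicates came from separate cultures is not stated in the labels, so the spread behind each p-value is that of these samples and may be technical.

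Signals are RMA values on the log2 scale, where a difference of 1 is a doubling. The median of all probe sets lay between 5.40 and 5.52 on the 12 arrays, and a gene was tested where its signal exceeded that of the array in at least 3 arrays. All 9 macrophage markers passed this filter, with a summed signal of 18.62 to 18.78 on the log2 scale in all groups. Unlogged signals were summed, so Lyz2 (means 17.70 to 17.83) and Cd68 (16.96 to 17.19) dominate, and a level sum does not show the others unchanged. In SCR medium against normal medium 2 of the 9 markers were higher and 4 lower (limma, adjusted p below 0.05). The shares over all tested genes there were 19.3% higher and 15.8% lower. Of markers of other cell types, 3 of 10 for mammary epithelium, 0 of 4 measured for fibroblasts and 1 of 8 for endothelium passed. Among all 30484 named genes 18123 passed. The 4 markers that did, Krt8, Krt14, Cldn4 and Tie1, read 5.26 to 5.74 over the arrays, close to the array medians. None of these 4 differed in any comparison (limma, adjusted p). Their summed signals ran from 8.37 to 8.48 for mammary epithelium, from 6.73 to 6.85 for fibroblasts and from 7.91 to 8.04 for endothelium, and the ranges of the 4 groups overlapped. In bulk RNA, fewer cells of a type and less RNA per cell cannot be told apart.

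Of the 3 VEGF ligands only Vegfa passed in any comparison, and the sequences in front of the start sites of all 3 are set side by side. Each runs 5′ to 3′ over the 250 bases before the outermost RefSeq start (GRCm38.p6). Capitals mark matches to the GC box GGGCGG on either strand, a motif bound by SP family factors. The Vegfa window is chr17:46032378-46032627 on the minus strand, that of Vegfb is chr19:6987652-6987901 on the minus strand, and that of Vegfc is chr8:54077282-54077531 on the plus strand.
Vegfa: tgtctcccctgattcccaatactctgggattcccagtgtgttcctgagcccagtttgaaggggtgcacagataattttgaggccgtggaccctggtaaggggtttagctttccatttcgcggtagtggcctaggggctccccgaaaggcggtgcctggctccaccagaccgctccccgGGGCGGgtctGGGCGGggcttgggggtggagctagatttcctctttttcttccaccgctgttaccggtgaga
Vegfb: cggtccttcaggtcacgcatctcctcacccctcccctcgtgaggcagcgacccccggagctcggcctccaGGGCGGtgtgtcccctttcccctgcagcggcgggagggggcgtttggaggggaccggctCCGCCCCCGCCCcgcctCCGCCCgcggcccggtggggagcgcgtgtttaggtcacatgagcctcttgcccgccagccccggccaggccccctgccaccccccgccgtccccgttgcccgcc
Vegfc: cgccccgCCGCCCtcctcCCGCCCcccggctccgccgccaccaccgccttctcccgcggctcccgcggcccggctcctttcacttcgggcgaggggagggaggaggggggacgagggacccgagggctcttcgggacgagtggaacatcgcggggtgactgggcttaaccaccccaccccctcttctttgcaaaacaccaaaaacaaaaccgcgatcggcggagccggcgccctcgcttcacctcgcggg
The Vegfa window held 2 GC boxes, at 72 and 62 bases before the start, the Vegfb window 4 and the Vegfc window 2. A GC box was found in 32.7% of 32851 promoter windows of this length. Other motifs were sought on both strands and were in none of the 3 windows printed. RefSeq gives Vegfa another start further downstream, and the window before that start, not printed here, held 1 GC box at 158 bases, 1 core of the cyclic AMP response element at 209 bases and 1 core site of the hypoxia-inducible factors at 211 bases before it. The AP-1 site (TGANTCA), which is bound by dimers of FOS and JUN proteins, occurs in 6.75% of all windows. The core of the cyclic AMP response element (TGACG), bound by CREB, occurs in 17.8% of them. For the core site of the hypoxia-inducible factors (ACGTG) the share was 16.6%, and for the E-box with that core inside it (CACGTG), a site of MYC and related factors, 6.02%. The share for the TATA box (TATAAA), which positions the start of transcription, was 12.4%. The C and G content was 59.2% for Vegfa, 76.4% for Vegfb and 71.6% for Vegfc, against a median of 52.4%.

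Vegfa carried most of the change among the VEGF ligands. On the arrays of normal medium its signal was 12.88, 12.71 and 12.74, and in SCR medium 13.98, 14.07 and 14.24. KO medium gave 14.48, 14.49 and 14.49, and SCR medium with CSH gave 13.95, 13.92 and 13.86. The 4 groups did not overlap on any array, and their order was normal medium lowest, then SCR medium with CSH, SCR medium and KO medium. Vegfa rose by 1.32 (SE 0.07), or 2.50-fold, from normal to SCR medium (limma, adjusted p = 4.41e-08). From SCR to KO medium it rose by a further 0.39 (SE 0.07), or 1.31-fold, with an adjusted p of 0.0332 in limma. The 95% interval of that step ran from 0.24 to 0.54. The lower signal with CSH, by -0.19 against SCR medium (95% interval -0.33 to -0.04), had an unadjusted p of 0.0175 and did not pass over all genes (limma, adjusted p = 0.76). So SCR medium and SCR medium with CSH were neighbours in the order that the test did not separate. KO medium exceeded SCR medium with CSH by 0.58, or 1.49-fold (limma, adjusted p = 0.00104).

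The call for KO against SCR medium rests on a narrow margin. Over all 22 alternative settings the adjusted p in limma ran from 0.0222 to 0.149, and in 12 of them the call no longer passed. It ended when any of the 3 KO arrays (adjusted p = 0.134, 0.118 and 0.137 without replicates 1, 2 and 3), SCR replicate 1 (0.133), SCR replicate 3 (0.149), normal medium replicate 4 (0.0558), or CSH replicate 1 (0.0572) or 2 (0.0549) was left out. With single arrays left out its size stayed between 0.33 and 0.46, and array weights gave 0.28.

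Vegfb, whose protein binds VEGFR1 alone among the VEGF receptor kinases, passed in no comparison. Its signal lay between 9.13 and 9.20 in normal medium, at 9.19, 9.17 and 9.19 in SCR medium, at 9.31, 9.13 and 8.95 in KO medium, and at 9.37, 9.18 and 9.20 with CSH. All groups overlapped, and the KO arrays were spread most. The difference of SCR from normal medium was 0.02 with a 95% interval of -0.16 to 0.20, and that of KO from SCR medium -0.05 with an interval of -0.23 to 0.13. A rise as large as that of Vegfa lies outside both intervals.

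Vegfc, the ligand of lymphatic growth, read 5.46 to 5.73 over the 12 arrays, just above the array medians, and all groups overlapped. Its difference was 0.04 for SCR against normal medium and again 0.04 for KO against SCR medium, each with a 95% interval of -0.12 to 0.19. With CSH it differed from SCR medium by 0.01 (interval -0.15 to 0.16). At a signal this close to the median of all probe sets a small change may not be detectable.

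Hbegf, the heparin-binding EGF-like factor, stepped up at both comparisons. Its signal was 5.71, 5.72 and 5.72 in normal medium and 6.48, 6.55 and 6.62 in SCR medium. In KO medium it reached 7.27, 7.48 and 7.61, while SCR medium with CSH gave 6.58, 6.54 and 6.39. Every KO array lay above every other array, every normal medium array lay below, and the arrays with and without CSH overlapped. From normal to SCR medium Hbegf rose by 0.83 (SE 0.08), or 1.78-fold (limma, adjusted p = 5.82e-06). From SCR to KO medium it rose by 0.90 (SE 0.08, 95% interval 0.73 to 1.08), or 1.87-fold, the 16th largest rise of 18123 genes tested (limma, adjusted p = 0.000312). That call passed in all 22 alternative settings. CSH changed it by -0.05 (95% interval -0.22 to 0.13, limma adjusted p = 0.974). KO medium exceeded SCR medium with CSH by 0.95, or 1.93-fold, with an adjusted p of 0.000152 in limma. The signal in normal medium was close to the array medians, where array signals compress differences, so the folds may understate the change in RNA.

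Ereg, which encodes epiregulin, stayed below the array median on all 12 arrays. Its signal ran from 5.15 to 5.37, and a weaker probe set of the gene ran from 5.03 to 5.31. It was not tested, and no order of its groups is given.

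Igf1, which encodes insulin-like growth factor 1, moved the other way and was the member with the widest range. Normal medium gave 11.76, 11.38 and 11.56, and SCR medium 9.21, 9.34 and 9.32. KO medium gave 8.80, 8.87 and 8.56, and SCR medium with CSH 9.07, 9.55 and 9.00. All conditioned media lay far below normal medium, the KO arrays lay below all others, and the arrays with CSH spanned those of SCR medium. Igf1 fell by 2.28 (SE 0.14) from normal to SCR medium, so that its signal was 4.85-fold higher in normal medium (limma, adjusted p = 1.42e-07). This was the 13th largest fall of 18123 genes. Of the 9 macrophage markers in the same comparison, 4 fell, Csf1r (-1.79), Adgre1 (-1.45), Ptprc (-0.50) and Cd68 (-0.15), and 2 rose, Itgam (0.97) and Cd14 (0.61). Lyz2, Spi1 and Fcgr3 were not called. Over all tested genes 15.8% were lower there and 19.3% higher. The part of these markers in the fall of Igf1 was not tested.

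For KO against SCR medium the difference of Igf1 was -0.55 (SE 0.14, 95% interval -0.85 to -0.25). Its arrays did not overlap and it ranked 13th among falls, but the adjusted p was 0.228 in limma, and so it is not called. It was called in 2 of 22 alternatives, with array weights (adjusted p = 0.0282) and with the replicate number as a fixed block (0.0436), and the range over all 22 was 0.0282 to 0.591. Against SCR medium with CSH the difference was -0.46 (limma, adjusted p = 0.124), also with no overlap. CSH itself gave -0.08 against SCR medium (95% interval -0.38 to 0.22).

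**Figure D1:**
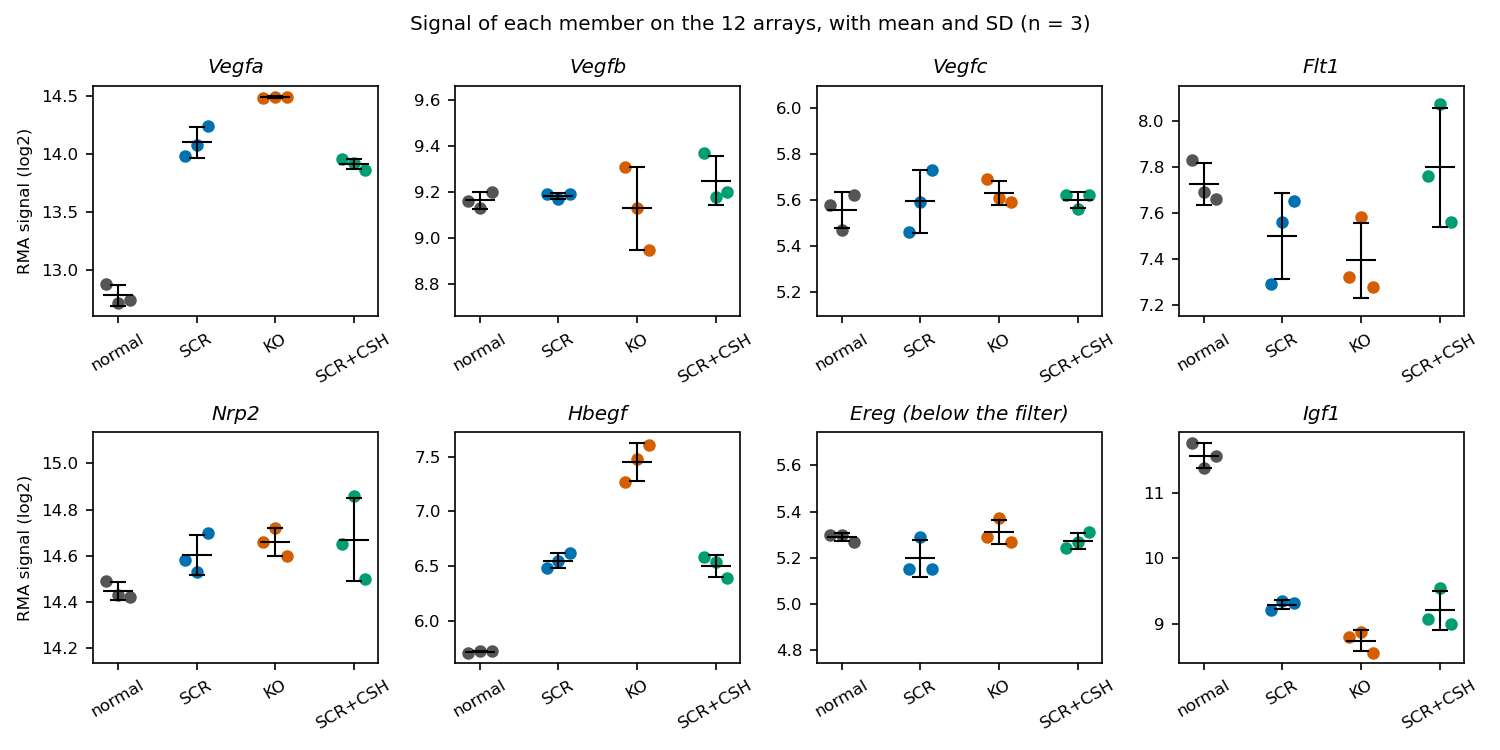
RMA signal (log2) of the 8 measured genes on each array, by medium. Points are arrays, bars the mean and SD (n = 3), and each panel has its own axis. Vegfa and Hbegf are lowest in normal medium and highest in KO medium, Igf1 runs from 11.38 to 11.76 in normal medium and below 10 elsewhere, and the other genes overlap between most groups.

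The receptors moved little. Flt1, which encodes VEGFR1, read 7.83, 7.69 and 7.66 in normal medium and 7.29, 7.56 and 7.65 in SCR medium. In KO medium it read 7.32, 7.58 and 7.28, and with CSH 7.76, 8.07 and 7.56. The arrays of normal medium lay above those of SCR and KO medium, and those with CSH overlapped all other groups. No comparison passed: SCR medium differed from normal medium by -0.23 (limma, adjusted p = 0.205) and KO medium from normal medium by -0.33 (adjusted p = 0.0563). With CSH the signal differed from SCR medium by 0.30 (95% interval 0.02 to 0.57), with an unadjusted p of 0.0384 and a limma adjusted p of 0.783. With single arrays left out this difference ran from 0.16 (without CSH replicate 2) to 0.415, and that of SCR from normal medium from -0.30 to -0.12 (without SCR replicate 1). KO medium differed from SCR medium with CSH by -0.40 (limma, adjusted p = 0.15). In 8 of 22 alternatives the difference of KO from normal medium did pass, with adjusted p from 0.0196 to 0.171 over all of them, among them those without SCR replicate 1, KO replicate 2, CSH replicate 2 and CSH replicate 4.

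Nrp2 encodes neuropilin 2, a coreceptor for VEGF-C and class 3 semaphorins. It read 14.49, 14.43 and 14.42 in normal medium, 14.58, 14.53 and 14.70 in SCR medium, 14.66, 14.72 and 14.60 in KO medium, and 14.65, 14.86 and 14.50 with CSH. All arrays of normal medium lay below all others, while the 3 conditioned media overlapped. The difference from normal medium was 0.16 for SCR medium (limma, adjusted p = 0.156). It rose by 0.21, or 1.16-fold, in KO medium (limma, adjusted p = 0.0497) and by 0.22, or 1.17-fold, with CSH (adjusted p = 0.0439). These 2 calls ended in 15 and 14 of 22 alternatives, with adjusted p up to 0.177 and 0.409. With an array left out, the adjusted p for KO medium ran from 0.0156 to 0.149, and omitting any normal, SCR or KO array or CSH replicate 1 ended the call. With CSH they ran from 0.00735 to 0.187 and the difference from 0.13 to 0.31, the lowest without CSH replicate 2. The call with CSH ended without any of the normal medium arrays, SCR replicate 1, KO replicate 1 or 2, or CSH replicate 1 or 2.

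**Figure D2:**
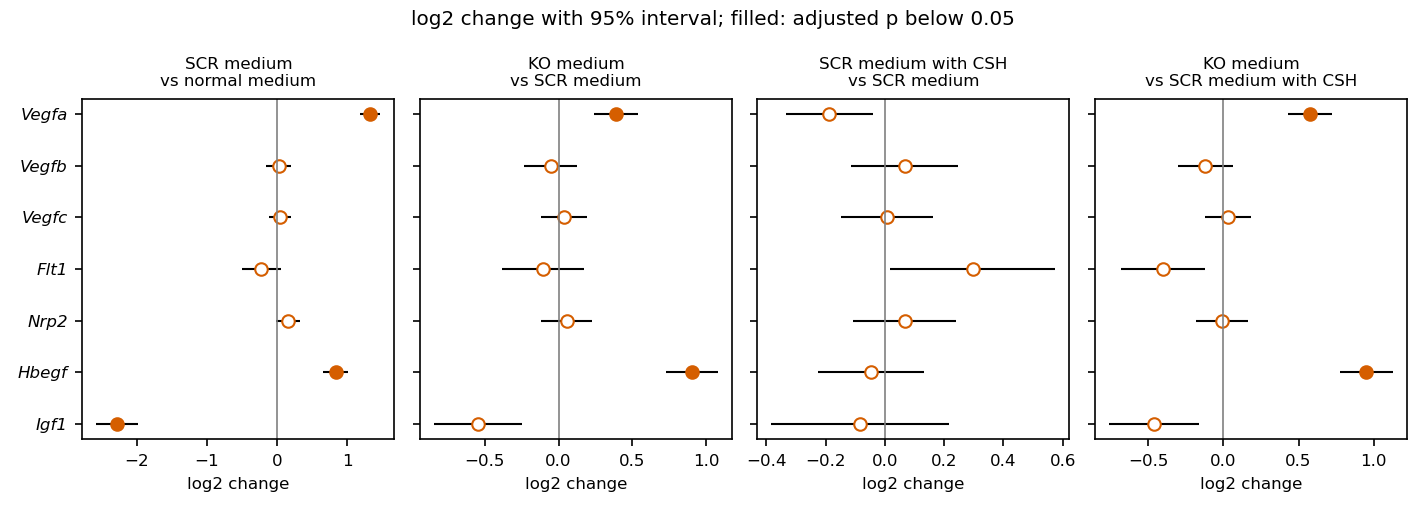
Difference of the 7 tested genes in 4 comparisons, on the log2 scale (each panel has its own axis), with the 95% interval of the limma fit. Filled points passed at an adjusted p of 0.05: Vegfa and Hbegf in 3 of the panels and Igf1 in the first.

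Set against all genes, the calls among the 7 tested members were these. The members were chosen with earlier results of these data known, so the shares of all genes are given as context and not as a test. For SCR against normal medium 2 were higher (Vegfa and Hbegf), 1 lower (Igf1) and 4 not called, where 19.3% of all tested genes were called higher and 15.8% lower. For KO against SCR medium 2 were higher and 0 lower, against 0.254% and 0.0166% of all genes. For SCR medium with CSH against SCR medium limma called 0 members and 0% of all genes in either direction. At an unadjusted p below 0.05 it held 2 of the 7 members, Vegfa and Flt1, and 1131 of all 18123 tested genes. KO medium against SCR medium with CSH called 2 members higher and 0 lower, against 1.21% and 0.695%.

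Each medium was also compared with normal medium. KO medium called 3 members higher (Vegfa by 1.71, Hbegf by 1.74 and Nrp2) and 1 lower (Igf1, which fell by 2.82), against 21.4% and 17.6% of all genes. SCR medium with CSH called the same 3 higher (Vegfa by 1.13, Hbegf by 0.79 and Nrp2) and Igf1 lower, by -2.36, against 20.9% and 14.9%. These comparisons share the normal medium arrays, and those with SCR medium share its arrays. The median over all tested genes was 0.02, 0.00 and 0.01 in the comparisons of SCR with normal medium, KO with SCR medium and CSH with SCR medium.

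**Figure D3:**
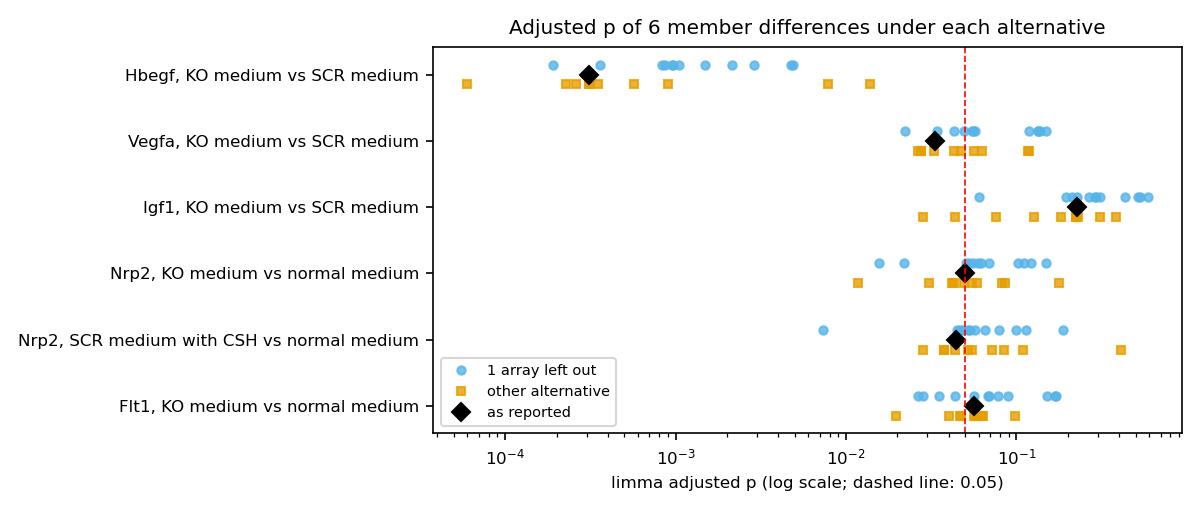
Adjusted p (limma, log axis) of 6 differences as reported (diamonds), with each single array left out (circles) and under the other alternatives (squares). Hbegf stays left of the dashed line at 0.05 throughout, whereas Vegfa, Igf1, Nrp2 and Flt1 fall on both sides of it.

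The other genes of these pathways were taken as 6 lists with 105 genes, of which 56 were tested. For SCR against normal medium 14 rose and 14 fell, and the counts of the single lists below are to be read against the 19.3% of all tested genes that were higher there and the 15.8% that were lower. For KO against SCR medium, and for CSH against SCR medium, limma called 0 of the 56, with 7 and 3 at an unadjusted p below 0.05. Of all 18123 tested genes, 1079 and 1131 were below it there. For KO medium against SCR medium with CSH 2 of the 56 were higher and 0 lower, against 1.21% and 0.695% of all tested genes.

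Among other ligands and receptors of the VEGF axis, 8 of 18 were tested. In SCR against normal medium 2 rose and 4 fell, with a median of -0.29 over the 8. The receptor genes Kdr and Flt4 were below the filter, at means of 4.67 to 4.74 and 4.89 to 4.93 over the groups. Plxna1, a plexin that pairs with neuropilins in semaphorin signalling, rose by 1.82 (limma, adjusted p = 7.62e-08). Falls were seen for Sema4d (-0.85), a membrane semaphorin, and for the plexins Plxnb2 (-0.67), Plxnd1 (-0.67) and Plxna2 (-0.36).

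In the EGF family, 2 of 12 other ligands and receptors were tested, Egf and Erbb3, and neither passed in any comparison. The receptor genes Egfr, Erbb2 and Erbb4 were below the filter in these cells, with means of 4.87 to 4.89, 5.02 to 5.06 and 4.44 to 4.49. Erbb3 had means of 5.93 to 6.02. A gene below the filter has a signal not told apart from the lower part of the array, so no absence is stated.

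Genes for the release of EGF family ligands and for feedback on their receptors were better represented, with 13 of 16 tested. In SCR against normal medium 6 rose and 2 fell (median 0.16). Adam17, the main protease that sheds HB-EGF and amphiregulin, fell by 0.83 (limma, adjusted p = 2.14e-06) while Hbegf rose. Rises were seen for Rhbdf2 (0.85), a rhomboid-like partner that ADAM17 needs for maturation, Adam8 (0.82), the feedback inhibitor Spred2 (0.62) and Adam10 (0.49). For KO medium against SCR medium with CSH the 2 calls were Errfi1 (0.46, adjusted p = 0.0457), an inhibitor of the EGF receptor, and Spred2 (0.35, adjusted p = 0.0461), both named after their values were seen. Against SCR medium, KO medium differed by 0.42 for Errfi1 (limma, adjusted p = 0.215) and by 0.22 for Spred2 (adjusted p = 0.624). Adam8 differed most there, by 0.49 (limma, adjusted p = 0.0919). In that comparison 4 of the 13 had an unadjusted p below 0.05 in limma, and 0 were called.

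Of the IGF axis 4 of 17 were tested, and in SCR against normal medium 0 rose and 2 fell (median -0.12). Igfbp4, a binding protein that holds IGF-1, fell by 1.32 (limma, adjusted p = 2.48e-07) and Igf2r, the clearance receptor for IGF-2, by 0.31. The IGF-1 receptor gene Igf1r was below the filter at means of 4.43 to 4.48.

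Among 8 tested genes of 19 other angiogenic ligands, 2 rose and 3 fell (median -0.095). Il1a, the cytokine interleukin-1 alpha, rose by 2.06 (limma, adjusted p = 9.08e-07) and Pdgfa by 0.19. Angpt2 (-0.44), which antagonises the TIE2 receptor, Pdgfb (-0.57) and Adm (-1.26), the vasodilator adrenomedullin, fell.

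Vegfa is a known target of the hypoxia-inducible factors, so a list of 23 genes of the hypoxia response was set beside it. In SCR against normal medium 4 of its 21 tested genes rose and 3 fell, where 19.3% of all tested genes were higher and 15.8% lower, so these counts are near the background. The median was 0.02, as over all tested genes. Rises included Ero1a (0.96), an oxidase of the endoplasmic reticulum, Hif1a (0.31) and Vhl (0.32), and falls Pdk1 (-0.64) and Ankrd37 (-1.27). Arnt (0.23) and Egln3 (-0.60) were also called, and are named here after their values were seen. Hif1a and Arnt encode subunits of the factors and Vhl a regulator of them, so the counts mix regulators with response genes. In the 3 comparisons among conditioned media 0 of 21 passed in limma. For KO against SCR medium the median was 0.02, with 1 gene at an unadjusted p below 0.05, and for CSH against SCR medium it was -0.11, with 3. For KO medium against SCR medium with CSH it was 0.14, with 8, where the median over all tested genes was -0.02 and Vegfa rose by 0.58. A link of this list to Vegfa was not tested. Of all 18123 tested genes, limma gave 1079, 1131 and 2849 an unadjusted p below 0.05 in these 3 comparisons, in that order. These comparisons share arrays.

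**Figure D4:**
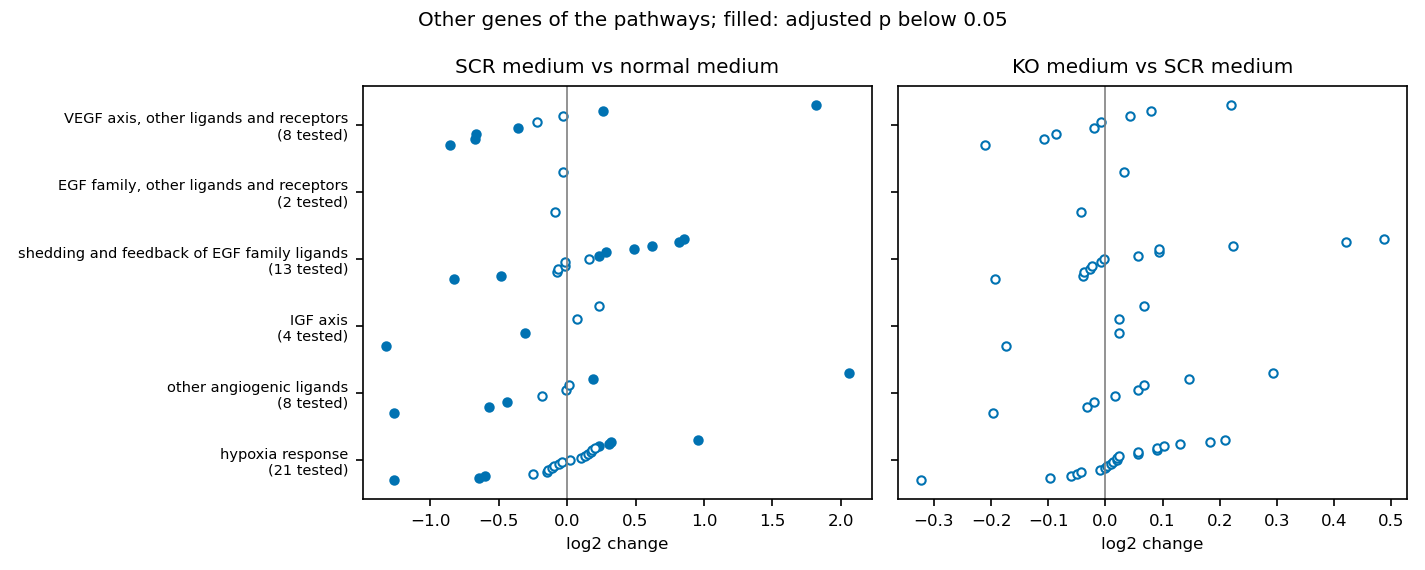
Difference (log2) of each tested gene of the 6 lists, for SCR against normal medium (left) and KO against SCR medium (right), whose axes differ. Filled points passed at an adjusted p of 0.05: 14 rose and 14 fell on the left, and 0 of 56 passed on the right.

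To describe which genes followed the same course, log2 values were centred on each gene's mean over the 12 arrays. The root mean square difference from Vegfa, from Hbegf and, added after its values were seen, from Igf1 was then ranked over all tested genes. The smallest differences from Vegfa were those of Acsl4 (0.105), an acyl-CoA synthetase, and Hilpda (0.112), a hypoxia-inducible lipid droplet protein. Hilpda was not in the list of hypoxia response genes above. Next came Dusp16 (0.131), Cd274 (0.134), which encodes PD-L1, and Slc7a11 (0.138), the cystine transporter. Vegfa itself varied about its own mean by 0.640 on this measure. From SCR to KO medium Dusp16 differed by 0.44, Hilpda by 0.43, Slc7a11 by 0.43, Acsl4 by 0.28 and Cd274 by 0.22, beside 0.39 for Vegfa. Only Dusp16 passed among these neighbours (limma, adjusted p = 0.0269), and the others ran from 0.0952 to 0.511.

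Closest to Hbegf were Pde8a (0.162), a cyclic AMP phosphodiesterase, Crem (0.166), a transcription factor of the cyclic AMP response, Plekhn1 (0.166), Dusp1 (0.173), a MAP kinase phosphatase, and Ccl2 (0.184), a monocyte chemokine. From SCR to KO medium they differed by 0.52 (Pde8a), 0.66 (Crem), 0.59 (Plekhn1), 0.65 (Dusp1) and 0.71 (Ccl2), where Hbegf differed by 0.90. Ccl2 did not pass (limma, adjusted p = 0.0814), and the others did. Since the choice used all 12 arrays, a step in the same direction was built into it, and these values are a description.

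For Igf1 the closest were Rasgrp3 (0.122), Myo1f (0.174), Clec12a (0.176), Rab7b (0.196) and Arsb (0.205). They differed by -2.49 to -2.00 from normal to SCR medium and by -0.48 to -0.25 from SCR to KO medium. None passed in the second of these (limma, adjusted p from 0.196 to 0.845). All genes share the 12 arrays that chose them, so these likenesses are a description of these arrays.

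**Figure D5:**
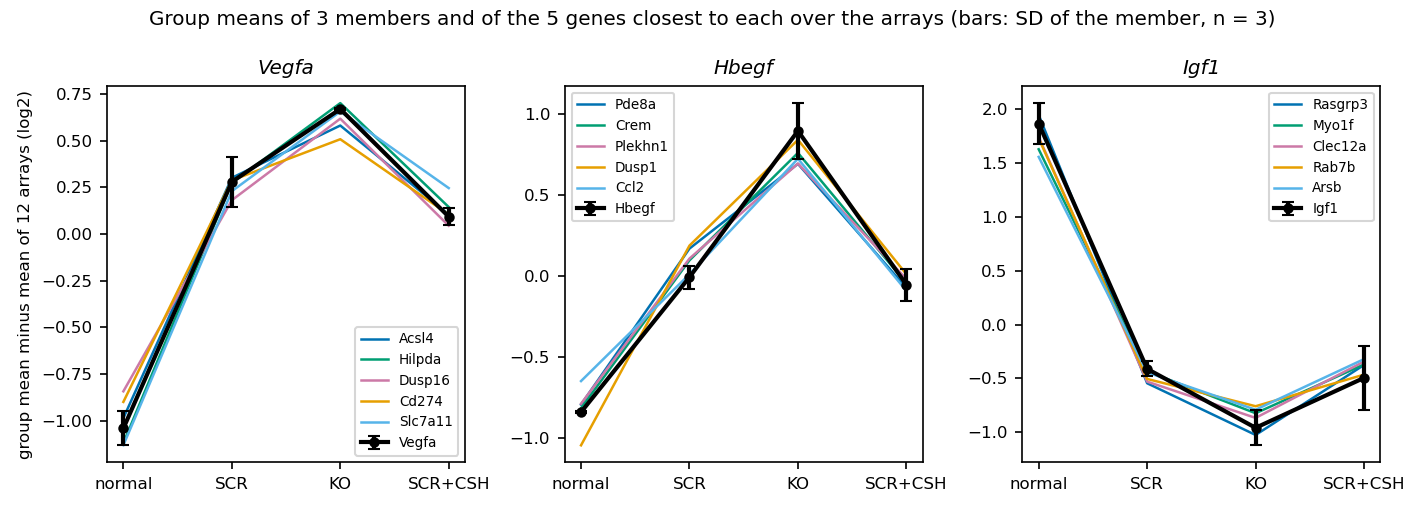
Group means of centred log2 signal for Vegfa, Hbegf and Igf1 (black, bars are the SD, n = 3) and for the 5 genes closest to each (coloured lines). Hbegf climbs by 0.83 and then 0.90 over the first steps, while Vegfa climbs by 1.32 and then 0.39.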

How the data were processed

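Signals of 12 arrays were read from the table the authors deposited, in log2 units, made with RMA in Affymetrix Expression Console on build mm10 per the submitters' processing notes. The sources used here do not give versions or probe filters. Because RMA equalises the arrays, a change in total RNA per cell would not be visible. Of 65528 probe sets, 31014 had 1 gene symbol in the platform table, 1482 several and 33032 none listed. Symbols were updated through the RefSeq table of GRCm38.p6, and 421 genes with several probe sets were represented by that with the highest mean.

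A gene was tested if above the array's median in at least 3 arrays (18123 genes). Differences were fitted by limma 3.58.1 under R 4.3.3. The model held the group alone, over all 12 arrays and with 8 residual degrees of freedom, and eBayes used an intensity trend. Adjustment was by Benjamini-Hochberg over all tested genes, with calls below 0.05. The fit was tested on simulated data. The number of arrays limits the precision. No arrays held identical values.

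The members and lists were chosen with earlier results of these data known. Named are all members, up to 5 called genes of a list with the smallest p in each of SCR against normal, KO against SCR and CSH against SCR medium, 7 receptors, and the 5 genes nearest to Vegfa and to Hbegf. Alternatives were other filters, normalizations, eBayes without a trend, array weights, mean of probe sets, replicate blocks, single arrays left out, and the 6 arrays of a comparison alone. Same-numbered samples of different groups deviated together with r from -0.065 to 0.295 over 12 pairs, highest for replicates 1 and 2 (0.075 to 0.295) and -0.065 to 0.063 for replicates 3 and 4. Since the labels give the numbers no meaning and not every pair exceeded 0.1, they were not taken to pair the samples. Promoters are RefSeq sequences of GRCm38.p6. Figures used matplotlib 3.10.9.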

Additional observations from a re-analysis of the deposited data

How the results depend on the processing

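Over 22 alternatives, 978 of 1056 values of the members were kept, 41 lost a call, 11 gained one, 3 moved by more than the replicate spread and 23 changed sign. For tested members, kept means the same direction and side of the threshold. Where a member was not tested, as for Ereg, it means a shift within the replicate spread. The calls of Hbegf and Igf1 against normal medium and of Hbegf in KO medium were among those kept. Called members for KO against SCR medium went from 2 to 1 with no filter, with median centring and with the 6 arrays alone, and were 1 to 2 with single arrays left out. They went to 3 with array weights, where Igf1 was added. With the fixed replicate block they stayed at 2, with Igf1 in place of Vegfa. Called genes there went from 49 to 376 with array weights (SCR replicate 4 weighed 6.13, and that fit did not fully converge) and to 22 with the 6 arrays alone, and were 20 to 50 with single arrays left out. For CSH against SCR medium they went from 0 to 1 with the 60th percentile filter, 52 with array weights and 1 with a random replicate block. For KO medium against SCR medium with CSH they went from 345 to 210 with no filter, 574 with quantile normalization, 154 with median centring, 654 with array weights, 214 with a fixed replicate block and 162 with the 6 arrays alone, and were 107 to 373 with single arrays left out. The fixed replicate block gave Vegfa 0.38 (adjusted p = 0.117) and Igf1 -0.65 (adjusted p = 0.0436) for KO against SCR medium. The cause of these shifts was not tested. Sign changes were all among differences that were not called. Vegfb was at -0.0275 for SCR against normal medium with the fixed replicate block and at 0.0017 for KO against normal medium with array weights. Vegfc was at -0.0647 for KO against SCR medium with array weights, and at -0.11 with array weights and -0.0050 with the fixed replicate block for CSH against SCR medium. Nrp2 was at -0.0089 for KO against SCR medium with array weights, at -0.0193 for CSH against SCR medium with quantile normalization, and at 0.0642 and 0.0100 for KO medium against SCR medium with CSH with quantile normalization and median centring. With single arrays left out, Vegfb ran from -0.143 to 0.0367 for KO against SCR medium and from -0.123 to 0.0567 for KO against normal medium. Vegfc ran from -0.0317 to 0.103 for SCR against normal medium, from -0.0300 to 0.105 for KO against SCR medium and from -0.0600 to 0.075 for CSH against SCR medium. Nrp2 ran from -0.0283 to 0.152 for CSH against SCR medium and from -0.095 to 0.085 for KO medium against SCR medium with CSH. For CSH against SCR medium Hbegf ran from -0.085 to 0.01 and Igf1 from -0.255 to 0.02, and for CSH against normal medium Flt1 ran from -0.0667 to 0.188. Signal over background limits Vegfc, Ereg and the receptors below the filter.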

Other observations

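Within KO medium the arrays parted for some genes of the hypoxia list and for Adm while Vegfa stayed level. These genes were chosen after their values were seen. In KO replicates 1, 2 and 3 Vegfa read 14.48, 14.49 and 14.49 on the log2 scale. Ankrd37, a hypoxia-inducible gene of unsettled function, read 10.45, 10.79 and 9.27, and Adm, which encodes adrenomedullin, read 13.56, 14.10 and 12.81. Pdk1, the kinase that restrains pyruvate dehydrogenase, read 9.02, 9.19 and 8.64, and Hk2, a hexokinase of glycolysis, 9.13, 9.32 and 8.70. Replicate 3 was the lowest KO array for each of these 4 genes and for Igf1, and the highest for Hbegf. In SCR medium Ankrd37 lay between 10.28 and 10.64, and Adm between 13.07 and 13.59.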
